A study of Mus musculus with 8 samples.

Results

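The major histocompatibility genes of the mouse H2 complex were examined in haematopoietic stem cells (HSCs) of 4 Bmpr2 knockout (KO) and 4 control (WT) pools. The set held every row of the annotated array matrix whose only gene symbol starts with H2-, which gave 38 genes, together with Cd74, Ciita, B2m, Nlrc5, Tapbp and Tap2. These were 62 probe sets and 44 genes, of 28853 probe sets and 21104 singly named genes in all. By role, 31 genes belonged to the class I system and 11 to the class II system, while H2-Ke2 and H2-Ke6 lie in the complex but encode no histocompatibility chain. Their current names are Pfdn6, a prefoldin subunit, and Hsd17b8, a steroid dehydrogenase. Nlrc5 had 19 probe sets and every other gene had 1.

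All mice were untreated and on a C57Bl/6 background. KO mice carried Vav-Cre, a recombinase transgene active in blood-forming and endothelial cells, and floxed Bmpr2 on both alleles (BMPR-II fl/fl). WT pools came from littermates without Cre that were fl/fl, fl/+ or +/+ at Bmpr2, mixed in proportions that differed between pools. WT pool 1 held 1 fl/fl and 2 fl/+ mice, WT pool 2 held 3 fl/+ mice, and WT pool 4 held 2 fl/fl and 1 fl/+. WT pool 3, with 1 mouse of each genotype, was the only pool with a +/+ mouse. Cre was thus present in every KO pool and no WT pool, so an effect of Cre itself and of the loss of Bmpr2 cannot be told apart. Each sample pooled the bones of 3 mice, per the labels, whereas the series' design text counts 4 mice on either side; the pool is the replicate here, with n = 4 per group. Cells were gated as lineage-negative, Sca-1-positive and Kit-positive, with high CD9, with CD150 and without CD48. The sources used here give no ages.

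Class I molecules display peptides made inside the cell to CD8 T cells and are read by natural killer cells. A heavy chain pairs with beta-2-microglobulin, and peptides are pumped in by the TAP transporter and loaded with the help of tapasin. Class II molecules are pairs of alpha and beta chains that present peptides from endosomes to CD4 T cells. They travel with the invariant chain, Cd74, and are loaded by H2-DM, which H2-O restrains. CIITA drives transcription of class II genes and NLRC5 that of class I genes, both through a shared promoter module bound by RFX, CREB/ATF and NF-Y factors. Class II is best known from B cells, dendritic cells and macrophages, and blood stem cells are known to express it too.

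RefSeq promoter windows, from 250 bases before to 50 bases after the start in GRCm38.p6, were found for 33 of the 44 genes, 24 of class I and 7 of class II. They are shown for 2 of the class II chains whose levels varied most, for the classical class I chains and for B2m, since the promoter module is what both systems share. Capitals mark the core of the X1 box (GCAAC, in the class II windows only), of the X2 box (TGACG) and of the Y box (ATTGG), and a kappa B element, which is GGGGA and, after 1 further base, TCCC.
H2-Aa, class II alpha chain, chr17:34287774-34288073, minus strand: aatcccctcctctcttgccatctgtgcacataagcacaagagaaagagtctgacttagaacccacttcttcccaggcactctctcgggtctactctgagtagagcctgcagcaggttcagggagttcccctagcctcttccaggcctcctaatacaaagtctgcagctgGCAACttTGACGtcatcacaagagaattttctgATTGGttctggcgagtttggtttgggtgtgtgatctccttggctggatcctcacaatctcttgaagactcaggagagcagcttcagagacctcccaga
H2-Eb1, class II beta chain, chr17:34305617-34305916, plus strand: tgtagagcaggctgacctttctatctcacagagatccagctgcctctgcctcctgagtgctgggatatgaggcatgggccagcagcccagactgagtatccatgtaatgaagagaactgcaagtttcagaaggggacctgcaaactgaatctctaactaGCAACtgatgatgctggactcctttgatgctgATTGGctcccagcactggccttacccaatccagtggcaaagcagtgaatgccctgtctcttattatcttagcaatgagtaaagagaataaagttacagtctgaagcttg
H2-K1, class I heavy chain, chr17:34000298-34000597, minus strand: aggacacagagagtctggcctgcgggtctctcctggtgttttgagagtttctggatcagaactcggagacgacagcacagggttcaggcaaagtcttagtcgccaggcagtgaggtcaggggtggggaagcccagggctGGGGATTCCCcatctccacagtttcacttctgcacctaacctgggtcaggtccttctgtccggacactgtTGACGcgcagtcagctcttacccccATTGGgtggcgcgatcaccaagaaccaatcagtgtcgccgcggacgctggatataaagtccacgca
H2-D1, class I heavy chain, chr17:35262844-35263143, plus strand: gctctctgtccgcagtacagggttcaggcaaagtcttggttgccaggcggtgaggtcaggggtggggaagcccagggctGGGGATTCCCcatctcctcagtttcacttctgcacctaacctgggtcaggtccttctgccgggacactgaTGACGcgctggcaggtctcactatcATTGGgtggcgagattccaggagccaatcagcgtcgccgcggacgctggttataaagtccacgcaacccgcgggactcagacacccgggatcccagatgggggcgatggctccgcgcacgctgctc
B2m, beta-2-microglobulin, chr2:122147437-122147736, plus strand: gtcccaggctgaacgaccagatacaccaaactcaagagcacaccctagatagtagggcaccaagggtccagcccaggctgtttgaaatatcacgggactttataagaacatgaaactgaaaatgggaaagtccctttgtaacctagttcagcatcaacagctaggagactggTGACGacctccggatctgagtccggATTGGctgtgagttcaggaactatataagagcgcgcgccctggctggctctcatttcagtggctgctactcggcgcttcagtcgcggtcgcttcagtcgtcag

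Motifs were searched on both strands of each window. An X1 core followed 20 to 40 bases later by a Y core was present in 5 of the 7 class II windows, those of H2-Aa, H2-Eb1, H2-Eb2, H2-Oa and H2-Ob, and in 1.01% of all 32851 RefSeq promoter windows. The gap was 28 bases in H2-Aa and 27 bases in H2-Eb1. An X2 core followed 17 to 23 bases later by a Y core was present in 6 members, B2m, H2-D1, H2-K1, H2-M3, H2-Q7 and H2-Aa, and in 0.329% of all windows. In H2-Aa both pairs share the same Y core. The kappa B element was found in H2-D1, H2-K1, H2-Q6 and H2-Q7, against 0.323% of all windows, and an interferon element, GAAA repeated after any 2 bases, in B2m, H2-T22 and H2-T23, against 3.44%. Singly, the X1, X2 and Y cores occurred in 35.2%, 20.8% and 37.4% of all windows and in 11, 14 and 29 of the 33 member windows. The spacings were set after the sequences had been read, and a match is a run of letters, not a tested site.

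Levels are the deposited log2 values, on which a step of 1 is a doubling, and a difference is KO minus WT. They were tested with limma, a linear model that shares the spread across genes, with p adjusted over all 21104 genes and a threshold of 0.05. No gene passed, 0% of all genes, while 960 genes (4.55%) had an unadjusted limma p under 0.05. Bmpr2 itself, the targeted gene, was at 7.22, 6.64, 6.70 and 6.91 in KO pools 1 to 4 and at 8.09, 7.63, 7.05 and 7.83 in WT pools 1 to 4. The difference was -0.79 (SE 0.21, limma p = 0.00287, adjusted p = 0.967, exact permutation p = 0.0571). The groups overlapped, as KO pool 1 lay above WT pool 3. Of 8 stem cell genes of the gate and identity, 6 lay above the upper quartile of every array, among them Kit, Ly6a (Sca-1) and Cd9, while Slamf1 (CD150) and Procr did not. Of 10 B cell genes 2 lay below the lower quartile of every array, as did 1 of 9 dendritic cell genes, 2 of 10 macrophage and monocyte genes and 4 of 10 T and NK cell genes. In these lists 1 gene, of T and NK cells, lay above the upper quartile of every array, and the others lay in between. RMA values have no true zero, so no marker can be called absent.

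No H2 gene passed the test. Of the 44 genes, 23 were higher in KO and 21 in WT, 0 passed the adjusted threshold, and 1, H2-M10.4, had an unadjusted limma p under 0.05, against 4.55% of all genes (2.3% higher and 2.25% lower in KO). The adjusted p ran from 0.967 to 0.999. The KO pools lay wholly above the WT pools for 1 gene, H2-M1, and wholly below for 1, H2-Q4, against 1.09% and 1.5% of all genes, or 2.58% in either direction. By 1 probe set per gene, no member differed by more than 1.5-fold, as 0.611% of all genes did, and the largest difference was 0.41, or 1.33-fold, for H2-M10.4. The spread within groups exceeded the difference in 39 of the 44 genes, as it did in 79.4% of all genes, of which 48.7% were higher in KO. The median difference was 0.0057 for the 31 class I genes and 0.014 for the 11 class II genes, against -0.0043 over all genes.

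**Figure D1:**
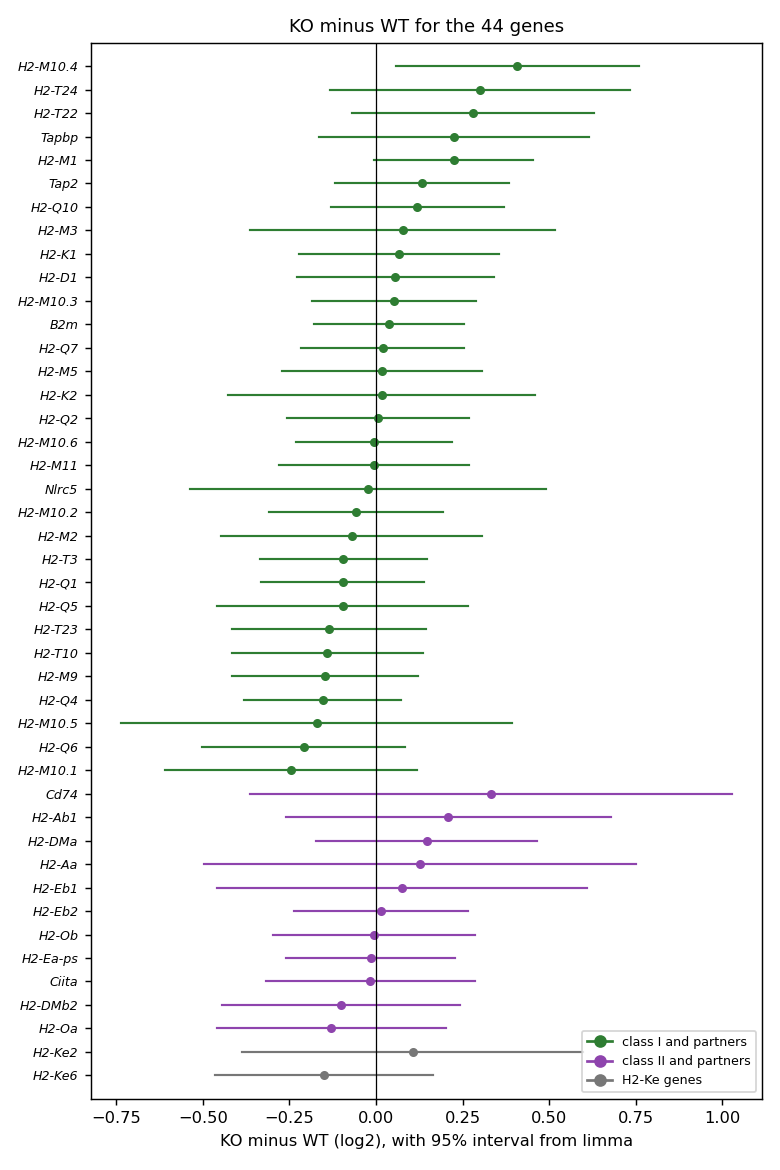
Difference between KO and WT (log2, horizontal axis) for each of the 44 genes, ordered within class I, class II and the H2-Ke genes; points are limma estimates and bars their 95% intervals, n = 4 pools per group. The interval of H2-M10.4, 0.06 to 0.76, lies above 0, and the widest of the class II intervals is that of Cd74, -0.36 to 1.03.

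Of the class II genes, the alpha and beta chains H2-Aa, H2-Ab1 and H2-Eb1 and the invariant chain Cd74 moved most from pool to pool, by the SD within groups. H2-Aa, the alpha chain of I-A, was at 8.19, 8.30, 7.49 and 7.76 in KO pools 1 to 4 and at 8.53, 8.03, 7.02 and 7.66 in WT pools 1 to 4. Both the highest and the lowest value were WT pools, 2.85-fold apart, and the KO pools lay between them. The group means were 7.94 ± 0.38 and 7.81 ± 0.64 (SD, n = 4 each). The difference was 0.13 (SE 0.28, exact permutation p = 0.771, 2-sided), and it was -0.14 without WT pool 3.

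H2-Ab1, the beta chain of I-A, was at 8.05, 8.18, 7.76 and 7.94 in the KO pools and at 8.43, 7.90, 7.43 and 7.33 in the WT pools. Again WT pools held both extremes, 2.15-fold apart. The means were 7.98 ± 0.18 in KO and 7.77 ± 0.50 in WT (SD, n = 4 each), a difference of 0.21 (SE 0.21, exact permutation p = 0.457). It was 0.43 without WT pool 1 and 0.061 without WT pool 4. H2-Eb1, the beta chain of I-E, was at 7.07, 6.71, 6.16 and 6.74 in KO and at 7.21, 6.72, 6.05 and 6.40 in WT. Its pools spanned 2.24-fold, from WT pool 3 to WT pool 1. The difference was 0.076 (SE 0.24, exact permutation p = 0.857), turning to -0.06 when KO pool 1 was left out and to -0.11 when WT pool 3 was.

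Cd74, the invariant chain that escorts class II dimers, was at 8.10, 7.94, 7.03 and 7.95 in the KO pools and at 8.07, 7.78, 6.51 and 7.34 in the WT pools. Pool 3 was the lowest of its group on both sides, and the 8 pools spanned 3.02-fold. The means were 7.76 ± 0.49 and 7.42 ± 0.68 (SD, n = 4 each), a difference of 0.33 (SE 0.32, exact permutation p = 0.486) with an interval from -0.36 to 1.03. It was 0.029 without WT pool 3 and 0.57 without KO pool 3.

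**Figure D2:**
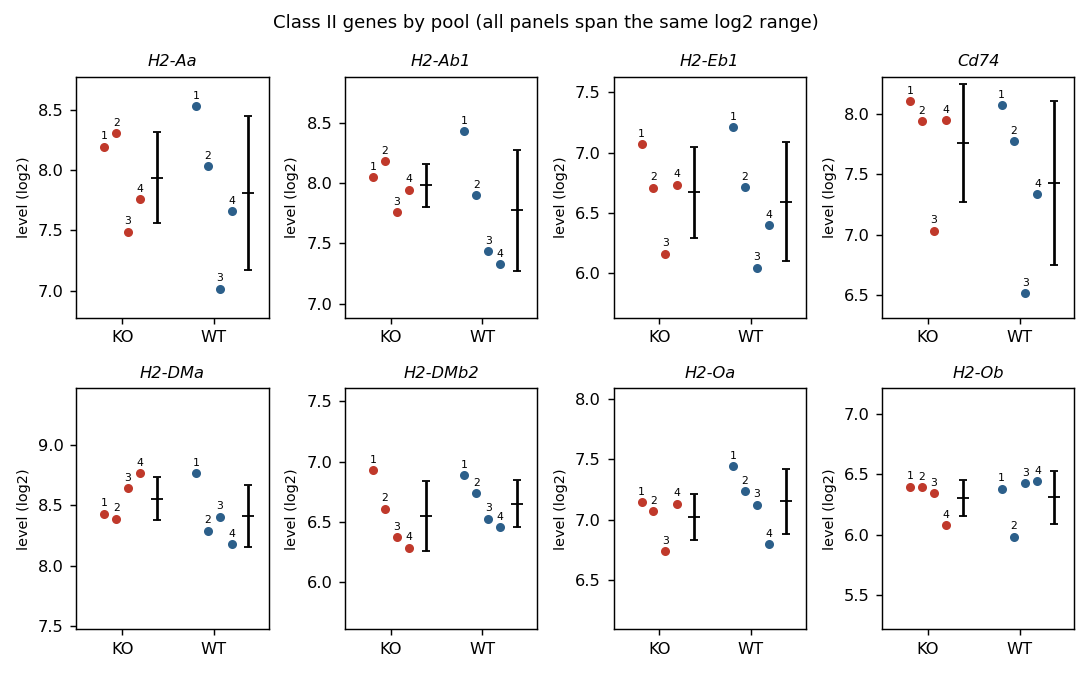
Log2 level of class II genes in KO pools (red) and WT pools (blue), numbered 1 to 4; the black bar is the group mean with the SD, and every panel spans the same log2 range. Pool 3 is the lowest KO pool for H2-Aa, H2-Ab1, H2-Eb1 and Cd74, and H2-DMa and H2-Ob are spread over a narrower range.

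These 4 genes, grouped after their values were seen, kept nearly the same order of pools. WT pool 1 was highest in 3 and among the 2 highest in 4 of them, and WT pool 3 was lowest in 3 and among the 2 lowest in 4. KO pool 3 was the lowest KO pool in 4 of 4. By their mean deviation from each gene's average over the 8 pools, KO pools 1 to 4 stood at 0.36, 0.29, -0.38 and 0.10 and WT pools 1 to 4 at 0.57, 0.11, -0.74 and -0.31. The SD within groups of Cd74, H2-Aa and H2-Eb1 exceeded that of 95% of all genes (percentiles 99.1, 98.5 and 96.6), and H2-Ab1 stood at percentile 93.7. Of the 11 class II genes, 3 were above the 95th percentile of spread, 0.40, and of the 31 class I genes 2, Nlrc5 and H2-M10.5. The median SD within groups was 0.23 for class II, 0.17 for class I and 0.19 over all genes.

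Markers of other cells and states differed between the same pools. The complement genes C1qa, C1qb and C1qc, products of macrophages, were highest in pool 3 of each group, for 3 of 3 genes on both sides. C1qa was at 5.45, 5.16, 6.59 and 4.97 in KO and at 5.19, 5.26, 6.39 and 5.33 in WT. C1qc was at 6.44, 6.06, 7.92 and 5.65 in KO and at 6.42, 6.00, 7.21 and 6.29 in WT. The pools with the highest C1q levels held the lowest H2-Aa, H2-Eb1 and Cd74 of their groups, and a link between these levels was not tested. Over all 10 macrophage and monocyte markers the mean deviation ran from -0.19 to 0.36 in KO and from -0.16 to 0.36 in WT, with pool 3 at the top of each group. By single genes, pool 3 was the highest KO pool for 4 and the highest WT pool for 6 of the 10.

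**Figure D3:**
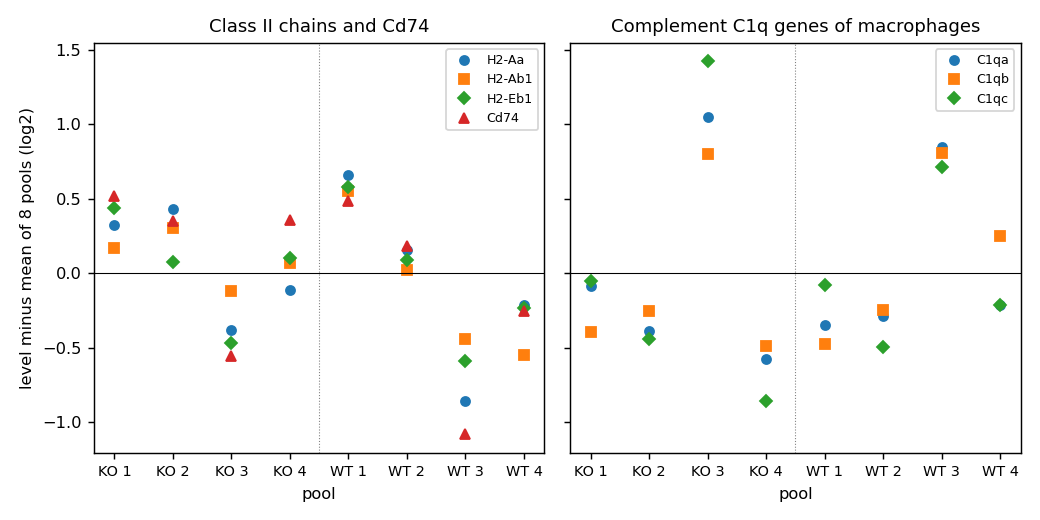
Deviation of each pool from the gene's mean over the 8 pools (log2, vertical axis) for the class II chains with Cd74 (left) and for the complement C1q genes of macrophages (right); 1 symbol per gene. KO pool 3 and WT pool 3 are low on the left and high on the right.

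Several genes of stem cell identity were also low in pool 3. Of the 8 genes of the stem cell list, pool 3 was the lowest KO pool for 6 and the lowest WT pool for 5. By the mean deviation of the list, KO pools 1 to 4 stood at 0.24, -0.096, -0.17 and -0.042 and WT pools 1 to 4 at 0.25, -0.098, -0.098 and 0.016, so WT pools 2 and 3 were level. Hlf, a stem cell transcription factor, was at 10.35, 10.17, 9.62 and 10.01 in KO and at 10.42, 10.30, 9.86 and 10.28 in WT. Mecom, another such factor, was at 8.10, 7.81, 7.27 and 7.86 in KO and at 8.25, 7.98, 7.56 and 7.67 in WT. Cd9, a gate marker, went the other way and was highest in pool 3 of each group, at 9.78 in KO and 9.53 in WT. Cd48, against which the gate selects, was also highest in pool 3, at 6.13 in KO and 5.52 in WT, where pool 4 was close at 5.475. Mpo, a granule enzyme of myeloid progenitors, was at 4.94, 7.35, 8.18 and 6.33 in KO and at 5.29, 5.37, 7.26 and 6.20 in WT. It is 1 of 8 neutrophil granule genes. Among these 8, pool 3 was the highest WT pool for 6 but the highest KO pool for only 2, and KO pool 2 was the highest KO pool for 5. The part of these genes in the class II levels was not tested, and in such pools fewer cells of a type and less RNA per cell cannot be told apart.

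Markers of the other class II-rich cells, as lists, shared the low KO pool 3 of the class II chains but not their whole order. The mean deviation of 10 B cell genes ran from -0.085 in KO pool 3 to -0.0014 in KO pool 2. In WT it ran from -0.14 in pool 1 to 0.15 in pool 3, the pool lowest in class II. By single genes, KO pool 3 was the lowest KO pool for 3 of the 10 and the highest for 3. The mean deviation of 9 dendritic cell genes ran from -0.10 to 0.048 in KO and from -0.14 to 0.17 in WT. Pool 3 had the lowest mean in each group, but it was the lowest KO pool for 3 and the lowest WT pool for 4 of the 9 genes. Clec9a, picked for its values, was at 5.43, 5.01, 4.37 and 4.95 in KO and at 5.58, 5.47, 4.58 and 4.98 in WT. Over the other 8 genes the mean deviation was -0.10 in KO pool 1 and -0.027 in KO pool 3, so KO pool 1 was then the lowest KO pool. WT pool 3 stayed the lowest WT pool, at -0.096, with WT pool 1 at -0.062. The part of these markers in the class II levels was not tested. Without both pools numbered 3, a comparison added after the values were seen, the difference was 0.012 for H2-Aa, 0.17 for H2-Ab1, 0.062 for H2-Eb1 and 0.27 for Cd74.

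The other class II members varied less. H2-DMa, the alpha chain of the peptide editor H2-DM, was at 8.43, 8.39, 8.64 and 8.76 in KO and at 8.77, 8.29, 8.41 and 8.18 in WT, a difference of 0.15 (SE 0.15). H2-DMb2, a beta chain of the same editor, was at 6.93, 6.61, 6.37 and 6.29 in KO and at 6.89, 6.74, 6.53 and 6.46 in WT, a difference of -0.10 (SE 0.16). For both genes the groups overlapped, and with 1 pool left out the difference ran from 0.069 to 0.27 for H2-DMa and from -0.23 to -0.014 for H2-DMb2. H2-Oa, the alpha chain of the H2-DM inhibitor H2-O, was at 7.15, 7.07, 6.74 and 7.13 in KO and at 7.44, 7.24, 7.12 and 6.80 in WT, a difference of -0.13 (SE 0.15). H2-Ob, its beta chain, was at 6.40, 6.39, 6.34 and 6.08 in KO and at 6.38, 5.98, 6.43 and 6.45 in WT, a difference of -0.0059 (SE 0.13). One pool on each side, KO pool 4 and WT pool 2, held the low values of H2-Ob. The difference of H2-Oa ran from -0.25 without WT pool 4 to -0.031 without WT pool 1.

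Ciita, the class II transactivator, was at 5.39, 5.23, 5.34 and 5.27 in KO and at 5.38, 5.67, 5.21 and 5.04 in WT. The KO pools lay inside the WT range, and the difference was -0.016 (SE 0.14, exact permutation p = 0.943), whose sign turned with the scaling, to 0.0197 after quantile normalization and 0.0316 after median centring. Its pools spanned 1.56-fold, and WT pool 3, lowest in H2-Aa, H2-Eb1 and Cd74, was not its lowest. H2-Eb2, a further I-E beta gene, was at 4.95, 5.12, 5.06 and 4.88 in KO and at 4.78, 5.11, 4.95 and 5.10 in WT, a difference of 0.014 (SE 0.11). H2-Ea-ps, the I-E alpha gene, which lacks its promoter in C57Bl/6 mice, was at 3.85, 3.83, 3.72 and 3.76 in KO and at 3.61, 3.98, 3.88 and 3.74 in WT, a difference of -0.015 (SE 0.11). It lay below the lower quartile of every array, and the KO pools of both genes overlapped the WT pools.

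The classical class I chains were bright and close to equal in KO and WT. H2-K1 was at 11.17, 10.78, 10.72 and 10.81 in KO and at 11.02, 10.84, 10.68 and 10.67 in WT. H2-D1 was at 11.10, 10.65, 10.75 and 11.03 in KO and at 11.02, 10.81, 10.75 and 10.73 in WT. Pool 1 was the highest of its group for both chains and on both sides. The difference was 0.067 (SE 0.13, exact permutation p = 0.600) for H2-K1 and 0.055 (SE 0.13, exact permutation p = 0.714) for H2-D1. Both became slightly negative without KO pool 1, at -0.032 and -0.018.

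B2m, the light chain shared by all class I molecules, was at 12.15, 12.06, 12.08 and 12.05 in KO and at 12.09, 12.14, 12.03 and 11.93 in WT. The 8 pools spanned no more than 1.16-fold, and the SD within groups was at percentile 1.76 of all genes. The difference was 0.038 (SE 0.10), with an interval from -0.18 to 0.26. Tap2, a subunit of the peptide pump, was at 7.62, 7.41, 7.46 and 7.45 in KO and at 7.56, 7.27, 7.39 and 7.19 in WT, a difference of 0.13 (SE 0.11). Tapbp, tapasin, was at 8.10, 7.65, 7.92 and 8.48 in KO and at 8.10, 7.54, 7.79 and 7.82 in WT, a difference of 0.23 (SE 0.18). For Tapbp, KO pool 4 was the highest of the 8 pools and the groups overlapped. Its difference was 0.077 without KO pool 4 and 0.35 without KO pool 2.

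**Figure D4:**
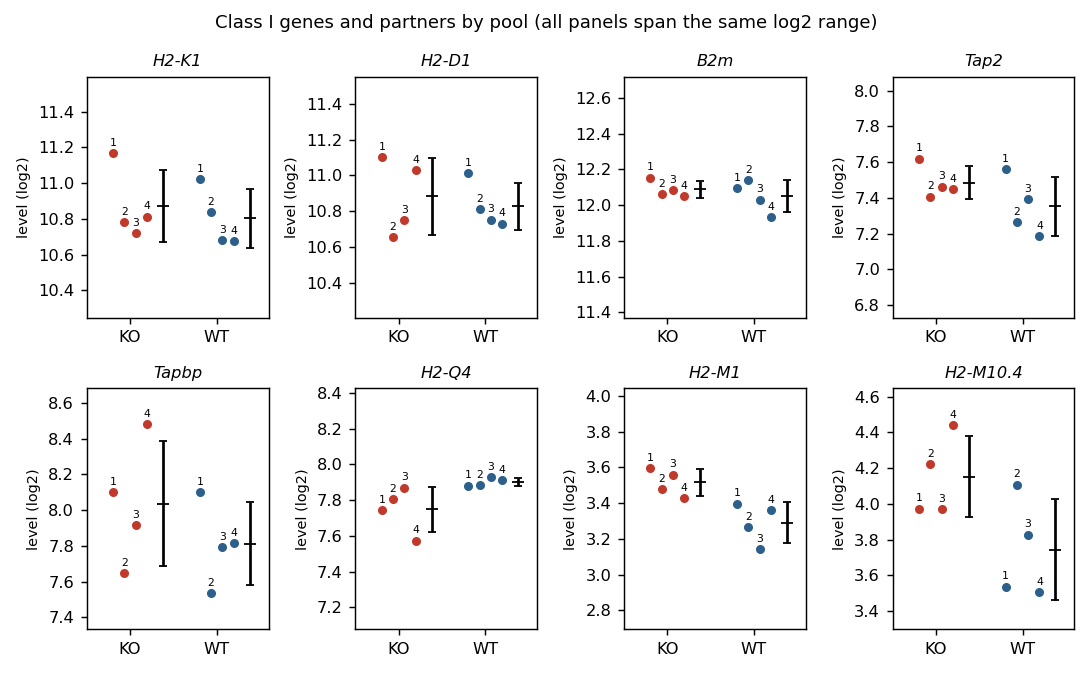
Log2 level of class I genes and partners in KO pools (red) and WT pools (blue), numbered 1 to 4; the black bar is the group mean with the SD, and every panel spans the same log2 range. B2m pools lie within 0.22 of each other; the groups are apart for H2-M1 and H2-Q4 and overlap in the other panels.

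The 25 non-classical heavy chains gave 11 higher and 14 lower differences, with a median of -0.0064. Several of these genes are near-identical in sequence, so probe sets may take signal from a neighbour and the assignment to a single gene is uncertain. H2-M10.4, of a family known from vomeronasal neurons, was at 3.97, 4.22, 3.97 and 4.44 in KO and at 3.54, 4.11, 3.83 and 3.51 in WT. WT pool 2 lay above KO pools 1 and 3. The difference was 0.41 (SE 0.16, limma p = 0.027, adjusted p = 0.967, exact permutation p = 0.0857). H2-M1 was at 3.60, 3.48, 3.56 and 3.43 in KO and at 3.40, 3.27, 3.14 and 3.36 in WT, below the lower quartile of every array. Every KO pool exceeded every WT pool, with a difference of 0.22 (SE 0.10, exact permutation p = 0.0286, the smallest that 4 against 4 pools can give). The authors' deposited p-value for H2-M1, which is not adjusted, was 0.0172, with a signed fold change of 1.17. Adjusted over all genes, the authors' p-values put 0 of the 44 members under 0.05.

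H2-T22, a ligand of gamma-delta T cells, was at 7.89, 7.34, 7.78 and 7.77 in KO and at 7.73, 7.53, 7.27 and 7.13 in WT. The difference was 0.28 (SE 0.16, exact permutation p = 0.171), and KO pool 2 lay below WT pools 1 and 2. H2-Q6, a Qa-2 gene, was at 9.75, 9.64, 9.80 and 9.33 in KO and at 9.85, 10.01, 9.62 and 9.88 in WT, a difference of -0.21 (SE 0.13, exact permutation p = 0.171). H2-Q4, named after its values were seen, was at 7.74, 7.81, 7.87 and 7.57 in KO and at 7.88, 7.88, 7.93 and 7.91 in WT. All KO pools lay below all WT pools, although KO pool 3 came close to WT pool 1. The difference was -0.15 (SE 0.10), and its 95% limma interval, -0.38 to 0.07, included both signs. The exact permutation p = 0.0286 is the value that any full separation of these pools gives. Because the gene was named with its values seen, that p adds nothing to the separation itself. The remaining 20 non-classical chains differed by -0.25 (H2-M10.1) to 0.30 (H2-T24), with overlapping groups. Among them, H2-T23, the Qa-1 chain read by natural killer receptors, differed by -0.14 and H2-Q7, of the Qa-2 group, by 0.019. The non-histocompatibility genes H2-Ke2 and H2-Ke6 differed by 0.11 and -0.15.

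Nlrc5, the class I transactivator, gave no single answer. Its 19 probe sets differed by -0.95 to 0.65, that is from 1.93-fold lower to 1.57-fold higher in KO, with 6 higher, 13 lower and a median of -0.15. Of the 19, 3 were over 1.5-fold lower and 1 over 1.5-fold higher, although the probe set that stands for the gene was not. Among all 23586 singly named probe sets, 0.75% passed 1.5-fold, 4.51% had an unadjusted limma p under 0.05 and 2.5% had groups that did not overlap. For Nlrc5 2 probe sets had such a p, in opposite directions, the groups overlapped in every probe set, and 0 passed the adjusted threshold (lowest limma adjusted p = 0.972). Probe set 10574143 differed by -0.60 and probe set 10574137 by 0.65. The most negative, 10574161, was at 7.64, 7.27, 7.38 and 7.31 in KO and at 7.64, 8.33, 9.94 and 7.48 in WT, where WT pool 3 stood far above the rest. The brightest, 10574102, which stands for the gene in the counts above, was at 9.47, 8.86, 8.86 and 8.22 in KO and at 9.01, 9.15, 8.45 and 8.89 in WT, a difference of -0.023 (SE 0.23), whose sign turned to 0.0247 after median centring. The probe sets share 1 gene and 8 pools and are not replicates.

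**Figure D5:**
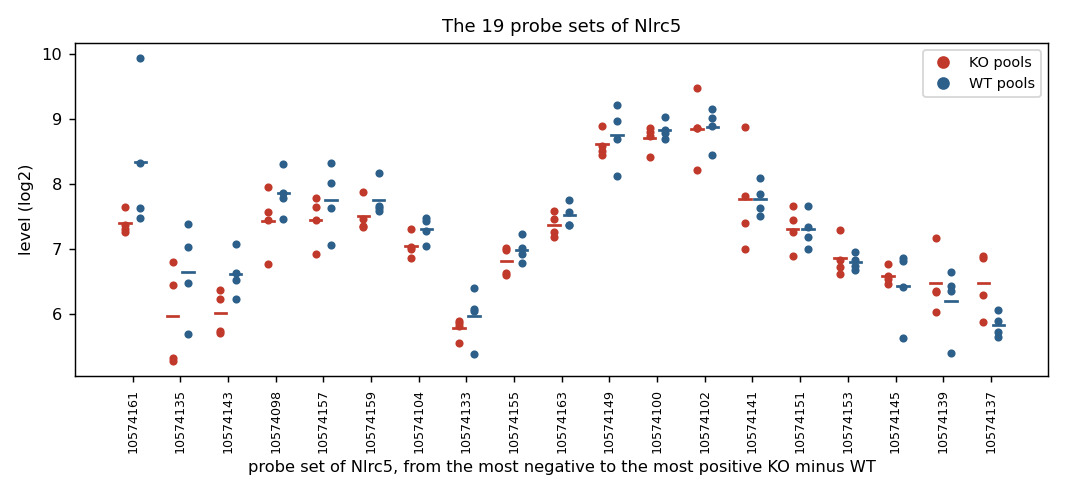
Log2 level of the 19 probe sets of Nlrc5 in KO pools (red) and WT pools (blue), ordered from the most negative to the most positive difference; short lines are group means, n = 4 pools each. The groups overlap in every probe set, and the WT mean of 10574161, at the left, is raised by 1 pool at 9.94.

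Of a further list of 51 genes of antigen presentation and its control, 49 were measured. By limma 32 were higher in KO and 17 in WT, the median was 0.051 (0.0094 after quantile normalization, 0.099 after median centring, and 0.011 to 0.082 with 1 pool left out), 0 passed the adjusted threshold and 6 had an unadjusted p under 0.05, against 4.55% of all genes. Higher were Ctsd (9.68 against 9.19) and Ctss (6.43 against 6.05), lysosomal proteases that cut antigens and the invariant chain, with differences of 0.49 (SE 0.19) and 0.39 (SE 0.13). Ifnar2 and Ifngr2, chains of the type I and type II interferon receptors, differed by 0.39 (SE 0.13) and 0.30 (SE 0.15). Lower were Cd1d2, a lipid-presenting molecule, by -0.37 (SE 0.13), Fcgrt, the neonatal Fc receptor, by -0.36 (SE 0.14), and Cd80, a co-stimulatory ligand, by -0.34 (SE 0.15). Irf1, an interferon-response factor, differed by -0.17 (SE 0.20). The adjusted limma p was 0.975 for Irf1 and 0.967 for each of the others, so they are given as values. The RFX subunits Rfx5, Rfxap and Rfxank, which bind the X box, differed by 0.0076, 0.0028 and -0.11. Tap1, the partner of Tap2, differed by 0.034, and the immunoproteasome subunits Psmb8 and Psmb9 by -0.030 and 0.0865.

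Among markers of maturing cells, 7 of 8 neutrophil granule genes and 7 of 7 erythroid genes were higher in KO, against 48.7% of all genes, and 0 passed the adjusted limma threshold. Their mean differences were 0.46 and 0.34, but both were 0.18 without WT pool 2, with 6 of 8 and 6 of 7 genes higher. Without KO pool 2 they were 0.19 and 0.25. The mean deviations of the neutrophil genes were -0.59, 1.07, 0.47 and -0.028 in KO and -0.27, -1.08, 0.65 and -0.22 in WT. KO pool 2, the highest of these, was among the higher pools for the class II chains with Cd74, at 0.29. WT pool 3 and KO pool 3, the next highest, were the lowest for those chains, at -0.74 and -0.38. The part of the neutrophil and erythroid genes in the H2 values was not tested.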

How the data were processed

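Per the labels' protocols, RNA of 8 pools was amplified from very small amounts, and each pool was hybridised to its own Affymetrix array. Per the submitters' processing notes, the authors used RMA in Affymetrix Expression Console 1.3, which subtracts background, equalises intensity distributions across arrays and sums each probe set. The deposited values are log2 levels of 28853 probe sets. RMA compresses differences of dim probe sets and can hide a change shared by most genes. The authors' deposited fold change and p-value per probe set were used only where named; the deposited p-value is not adjusted. No source used here gives the build or annotation release. With arrays, precision is limited by their number, 4 per group.

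Probe sets with exactly 1 symbol (23586) were kept, and the one with the highest mean stood for each of 21104 genes. In R 4.3.3, limma 3.58.1 (lmFit and eBayes, no covariate) compared KO with WT, with Benjamini-Hochberg adjustment over all genes; the code was tested on simulated data. Single genes also had an exact 2-sided permutation test over 70 assignments, with a smallest p of 0.0286, computed in Python 3.11.15 with scipy 1.17.1. The members and lists were chosen with earlier results of these data known. Values of every pool are given for Bmpr2, the classical chains, the partners, the class II chains and the 4 non-classical chains of smallest limma p. Of the further list, the 4 genes of smallest p per direction are named, with their differences. H2-Q4 and the grouping of H2-Aa, H2-Ab1, H2-Eb1 and Cd74 were chosen after values were seen, as were the markers given singly; 1 marker stays in its list but is not reported here singly. Of the further list, March1 and March8 were not found and Spi1 stands as Sfpi1. Symbols were checked against RefSeq, which holds 42 of 44 as current and 2 as older names; promoter windows are RefSeq's of GRCm38.p6. Alternatives were a replicate block, quantile normalization, median centring, level filters, a trended robust prior, array weights, other probe set choices, and pools left out; marker lists without 1 pool or without Clec9a were added after seeing the data.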

Additional observations from a re-analysis of the deposited data

Results flagged for a closer look

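In groups of 4 pools, a highest or lowest value was singled out where its gap to the nearest pool exceeded the critical share of the group's range in Dixon's test. Of 124 groups tested over the 62 probe sets, 3 met this, and chance alone gives about 1 in 20. Cd74 in KO pool 3 stood at 7.033, below the other KO pools at 7.94 to 8.10. H2-Ob in WT pool 2 stood at 5.984, below the others at 6.38 to 6.45. Nlrc5 probe set 10574159 in WT pool 1 stood at 8.173, above the others at 7.58 to 7.66.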

How the results depend on the processing

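No member passed the adjusted limma threshold under any alternative, and the lowest adjusted p of a member, 0.61, came with the replicate block. The block raised the number of genes called over all genes from 0 to 2, neither of them among the 44. The labels give the replicate numbers no meaning. Same-numbered pools deviated together with correlations of 0.29, 0.21, 0.31 and 0.06. Every pool correlated best with its own number, a hint from the data and not from the design. The main fit and the permutation tests took no account of the numbers, so their SE and p ignore any such sharing. The replicate block is the alternative that allows for it. Among 387 recomputed differences for 21 members and Bmpr2, 352 kept their direction and side of the threshold and 35 changed sign, in 10 genes whose difference was at most 0.13 in size; the cause was not tested. Quantile normalization gave 0.0197 for Ciita, 0.0162 for H2-Ea-ps and 0.0170 for H2-Ob. Median centring gave 0.0316 for Ciita, 0.0324 for H2-Ea-ps, 0.0417 for H2-Ob and 0.0247 for Nlrc5. Array weights gave 0.0323 for Ciita, 0.0051 for H2-Ea-ps and 0.0341 for Nlrc5. Without both pools numbered 3, chosen after seeing the data, H2-Ea-ps was at 0.0344, H2-Eb2 at -0.0173 and H2-Ob at 0.0205. With 1 pool left out, the difference ran from -0.0011 to 0.0683 for B2m, from -0.11 to 0.10 for Ciita, from -0.14 to 0.37 for H2-Aa, from -0.0179 to 0.13 for H2-D1, from -0.0792 to 0.0442 for H2-Ea-ps, from -0.11 to 0.28 for H2-Eb1, from -0.0541 to 0.0555 for H2-Eb2, from -0.0317 to 0.14 for H2-K1, from -0.11 to 0.0683 for H2-Ob and from -0.23 to 0.19 for Nlrc5. Among members that kept their sign it ran from 0.0611 to 0.43 for H2-Ab1, from 0.029 to 0.57 for Cd74, from 0.069 to 0.27 for H2-DMa, from -0.23 to -0.014 for H2-DMb2, from -0.25 to -0.031 for H2-Oa, from 0.077 to 0.35 for Tapbp and from 0.078 to 0.20 for Tap2. The class I median ran from -0.03 to 0.02, the class II median from -0.03 to 0.10 and that of the further list from 0.011 to 0.082; the last was 0.0094 after quantile normalization and 0.099 after median centring. A filter on level left 26 or 36 members. Dim probe sets such as H2-M1 and H2-Ea-ps lie where signal over background is low and RMA compresses differences.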
